A study of Mus musculus with 15 samples.

Results

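Oocytes of follicles grown in vitro with neurotrophin-4 (NT-4) for 10 days were compared with oocytes of follicles grown with NT-4 for 6 days. The comparison takes the 3 IVG-NT Day 10 libraries and the 3 IVG-NT Day 6 libraries, which are 6 of the 15 oocyte libraries of the series, as their labels group them. Of the 55401 gene identifiers in the files, 21009 had enough counts to be tested. The question was which transcripts changed in the oocyte over the last days of culture in medium with NT-4.

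The follicles of both groups came from Kunming females, 12 to 14 days old. Single preantral follicles were dissected and grown in medium with fetuin, insulin, transferrin, albumin and FSH, with NT-4 at 100 ng/mL in both groups, and the labels give only the day of culture (6 or 10) as differing between the groups. Germinal vesicle oocytes were taken out of their cumulus complexes, 6 oocytes were pooled per library, and their RNA was amplified by SMART-Seq2, an oligo(dT)-primed cDNA method with PCR. The samples stem from repeated experiments, and the sources do not say which of them share one. A library is a pool of oocytes from more than 1 follicle, so the values say nothing of the spread between single oocytes.

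NT-4 is a ligand of the receptor tyrosine kinase TRKB, encoded by Ntrk2, which signals through adaptors to the PI3K-AKT, RAS-MAPK and phospholipase C pathways. In the follicle the oocyte grows in contact with granulosa cells, which carry the FSH receptor, make inhibins and activins and send processes through the zona pellucida to the oocyte. A growing oocyte stores mRNA for meiosis and the first embryonic divisions, and transcription falls silent as it reaches full size.

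Total counts were 33860434 to 40658644 in the Day 10 libraries, and 5954262, 7125348 and 50336973 in Day 6 replicates 1, 2 and 3. A count was found for 18089 to 21516 genes at Day 10 and for 13338, 10991 and 20283 genes at Day 6. When every library was thinned at random to 5954262 counts, the Day 6 libraries still held 13338, 10956 and 18337 genes against 16567 to 19539 at Day 10. The group difference in genes at equal depth was 3646, with a two-sided exact permutation p of 0.3, where 3 libraries against 3 allow no p below 0.1. The rRNA gene took 21.4% to 29.96% of counts in replicates 1 and 2 of both days, and 0.714% and 0.198% in replicate 3 of Day 10 and Day 6. Across the genes tested the 2 shallow Day 6 libraries correlated with each other at a Spearman rho of 0.51 and with Day 6 replicate 3 at 0.52 and 0.54, while Day 10 and Day 6 replicate 3 correlated at 0.93. Values are therefore given for all 6 libraries and for the replicate 3 pair, and a call lost in thinned counts is named beside the gene.

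**Figure D1:**
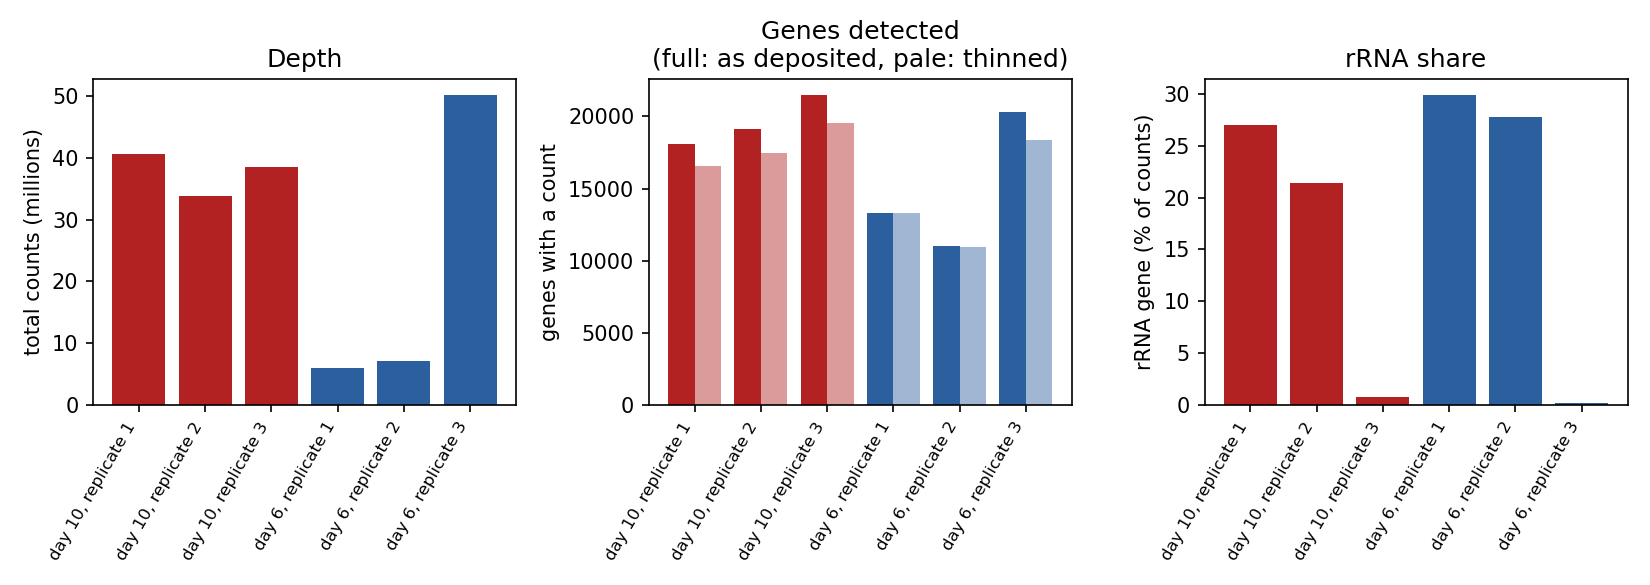
Bars show, for each IVG-NT library, the total counts, the genes with a count as deposited (full colour) and after thinning to 5954262 counts (pale), and the rRNA gene as a percentage of counts. Day 6 replicates 1 and 2 hold 5954262 and 7125348 counts and the fewest genes at equal depth, and replicate 3 of both days has under 1% rRNA.

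The threshold for a DEG was a log2 fold change beyond 1 in either direction together with an unadjusted P under 0.05 in edgeR's quasi-likelihood test over all 15 libraries. By this rule 2661 genes were DEGs (12.7% of the genes tested), 1146 higher (5.45%) and 1515 lower (7.21%) at Day 10. No gene had a Benjamini-Hochberg adjusted p under 0.05 in edgeR's quasi-likelihood test, and the smallest was 0.357. At an unadjusted P under 0.05 the same 2661 genes passed, and DESeq2's Wald test gave 715 genes with an adjusted p under 0.05. The count rested on single libraries. It was 6622 without Day 6 replicate 3, 1511 without Day 10 replicate 1, 1507 without Day 10 replicate 2, and 735 when Day 6 replicate 3 alone stood for Day 6 (438 higher, 2.08% of the genes tested, and 297 lower, 1.41%). With counts thinned to equal depth it was 1896. With the replicate number as a block in a fit of the 6 libraries it was 502. In that fit 12 genes had an adjusted p under 0.05 in edgeR's quasi-likelihood test. The split depended on the scaling, with 713 higher and 1994 lower under DESeq2's size factors, which moved the median log2 fold change of all genes from 0.40 to 0.04.

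The higher and the lower DEGs differed in how they were spread over the libraries. Among the 1146 higher DEGs, 824 had all 3 Day 10 libraries above all 3 Day 6 libraries, a pattern that 9.74% of all genes tested showed. Among the 1515 lower DEGs, 146 had all Day 10 libraries below all Day 6 libraries, which 1.24% of all genes showed. For 1459 of the 1515 lower DEGs the highest of the 6 values was in one of the shallow Day 6 libraries, and for 1039 of them Day 6 replicate 3 lay within or below the Day 10 range. For 607 of the higher DEGs both shallow libraries had a count of 0. In the replicate 3 pair, which has no replicate check, 407 higher DEGs had a log2 ratio above 1 and 203 lower DEGs a ratio below -1. Among all genes tested, 13.8% had such a ratio above 1 and 7.85% one below -1. Both conditions, separate libraries and a pair ratio beyond 1, held for 333 higher and 43 lower DEGs. The calls, the separation and the pair ratio all come from the same 6 libraries. A larger share among DEGs than among all genes therefore follows from the selection and is no support for the calls. Whether depth or the rRNA share of the libraries has a part in these calls was not tested. Protein-coding genes made up 86.0% of the higher and 71.8% of the lower DEGs, against 73.8% of the genes tested.

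**Figure D2:**
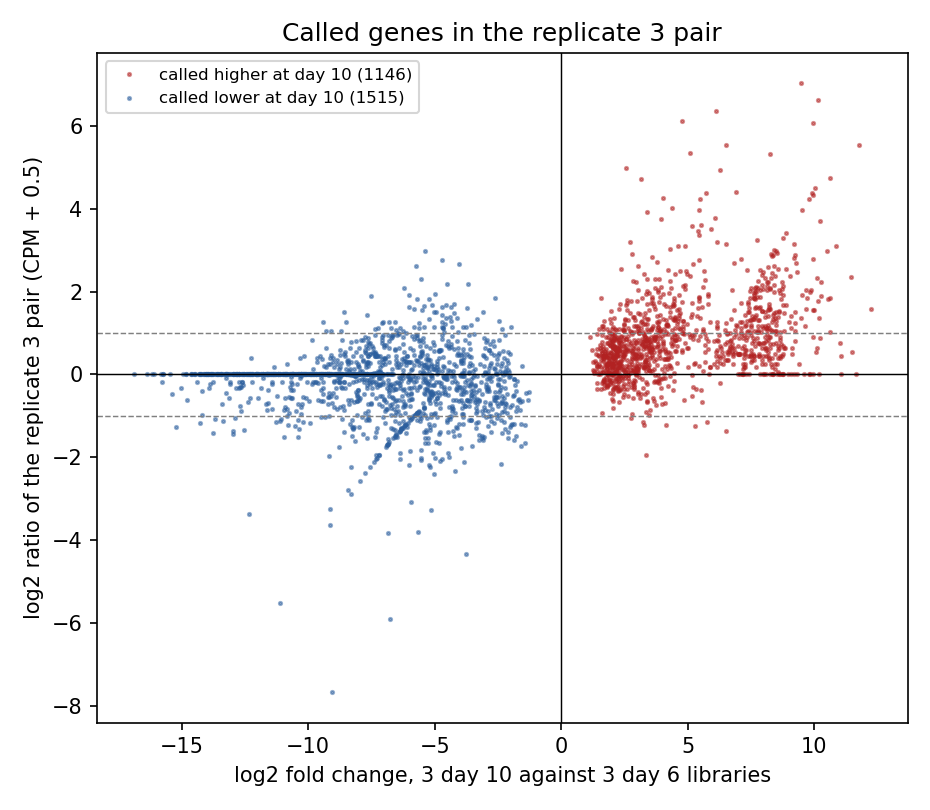
Each point is a DEG, with the log2 fold change over the 6 libraries on the x axis and the log2 ratio of the replicate 3 pair on the y axis. The higher DEGs lie mostly above 0 in the pair, while many of the 1515 lower DEGs lie on or near 0 in the pair.

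Among the 10 higher DEGs with the smallest P that also met both conditions were genes of the granulosa cell and of growth factor signaling. Expression is given as normalized CPM, which are counts scaled to the library total and the TMM factor. Ccnd2 encodes cyclin D2, which drives granulosa cell proliferation under FSH. It stood at 69.1, 23.6 and 60.2 CPM in Day 10 replicates 1 to 3 and at 1.81, 3.48 and 0.375 CPM at Day 6. The groups did not overlap, the log2 fold change was 4.79 with a standard error of 0.96 (adjusted p = 0.357 in edgeR's quasi-likelihood test), and the replicate 3 pair differed by 6.12. Grem1 encodes gremlin, a BMP antagonist that cumulus cells make in response to the oocyte. It had 145, 55.5 and 99.0 CPM at Day 10 and 0, 0 and 0.261 CPM at Day 6, a log2 fold change of 9.46 with a standard error of 2.22. Inhba, the beta A subunit of inhibin and activin, had 17.5, 47.0 and 21.4 CPM at Day 10 and 0, 0 and 0.538 CPM at Day 6 (log2 fold change 6.90, standard error 1.70).

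Other higher genes of this set had no count at Day 6 or nearly none. Hmox1, the stress-induced heme oxygenase, had 17.8, 9.17 and 2.06 CPM at Day 10 and no count at Day 6. Its Day 10 mean was at least 235-fold above the limit of 3 counts over the 3 Day 6 libraries. By the same limit, which covers counting error only and comes mostly from the depth of Day 6 replicate 3, Acer2 (an alkaline ceramidase) was at least 101-fold higher. Its bound was 77.2-fold without Day 10 replicate 2. The bound was 104-fold for Epas1, the hypoxia factor HIF-2 alpha, or 78.4-fold without Day 10 replicate 2. Tnfrsf21, the death receptor DR6, had 10.4, 38.2 and 1.01 CPM at Day 10, and its bound was 401-fold, or 138-fold without Day 10 replicate 2. Emc1, a subunit of the ER membrane complex, had 2.03, 8.46 and 1.22 CPM, and its bound was 94.5-fold, or 39.3-fold without Day 10 replicate 2. For Hmox1 the bound was 136-fold without Day 10 replicate 1. In Hmox1, Tnfrsf21 and Emc1 the Day 10 mean came mostly from the rRNA-rich libraries, and Day 10 replicate 3 was the lowest. The limit came mostly from the rRNA-poor Day 6 replicate 3, so these bounds do not compare libraries of like kind. The transcription factor Nfatc1 had 11.2, 9.47 and 3.55 CPM at Day 10 and 0, 0 and 0.130 CPM at Day 6. Bbx, an HMG-box factor, had 13.6, 8.12 and 4.86 CPM at Day 10 and 0, 0 and 0.0652 CPM at Day 6. All 10 were DEGs in the same direction with thinned counts and without any single library of the 6, and in a fit of the rRNA-rich libraries only, an alternative chosen after seeing the data. The 10 were chosen for small P, separate libraries and the pair ratio in these same libraries, so these fits are no separate check of them.

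The 10 lower genes chosen by the same rule were of mixed kinds. Tuba1c, an alpha-tubulin, was the most abundant, with 125, 112 and 236 CPM at Day 10 and 786, 1172 and 505 CPM at Day 6. Its groups did not overlap, the log2 fold change was -2.38 with a standard error of 0.63 (adjusted p = 0.357 in edgeR's quasi-likelihood test), and the pair differed by -1.09. Sft2d2, a membrane protein of vesicle transport, had 21.0, 18.5 and 20.5 CPM at Day 10 and 105, 286 and 42.0 CPM at Day 6. Ankrd10 had 0.824, 1.49 and 0.725 CPM at Day 10 and 179, 10.6 and 3.91 CPM at Day 6. The deubiquitinase gene Usp35 had 0, 1.18 and 2.76 CPM at Day 10 and 267, 45.6 and 11.6 CPM at Day 6. In each of these 4 genes Day 6 replicate 3 had the value nearest to Day 10.

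Gm10553 and C130026I21Rik lie in a cluster of near-identical genes, so the share of reads that belongs to each is uncertain. Their log2 fold changes were both -3.15, from 7.39 to 39.4 CPM at Day 10 and 112 to 404 CPM at Day 6 for Gm10553, and from 12.2 to 19.9 CPM and 58.6 to 205 CPM for C130026I21Rik. The remaining 4 had almost no count at Day 10 and under 1 CPM in Day 6 replicate 3. Padi3, a peptidylarginine deiminase, had 7.41, 52.9 and 0.766 CPM at Day 6. Tg (thyroglobulin) had 64.0, 71.2 and 0.554 CPM, Dok7 (an adaptor of muscle synapses) 98.3, 276 and 0.505 CPM, and Sema4a (a semaphorin) 82.6, 0.522 and 0.848 CPM. With Day 6 replicate 3 alone, a fit whose spread comes from the other groups, 5 of the 10 lower genes were no longer DEGs, namely Ankrd10, Tg, Usp35, Dok7 and Sft2d2, and Tg and Dok7 did not pass the filter in thinned counts. Sema4a was not a DEG in DESeq2's Wald test.

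**Figure D3:**
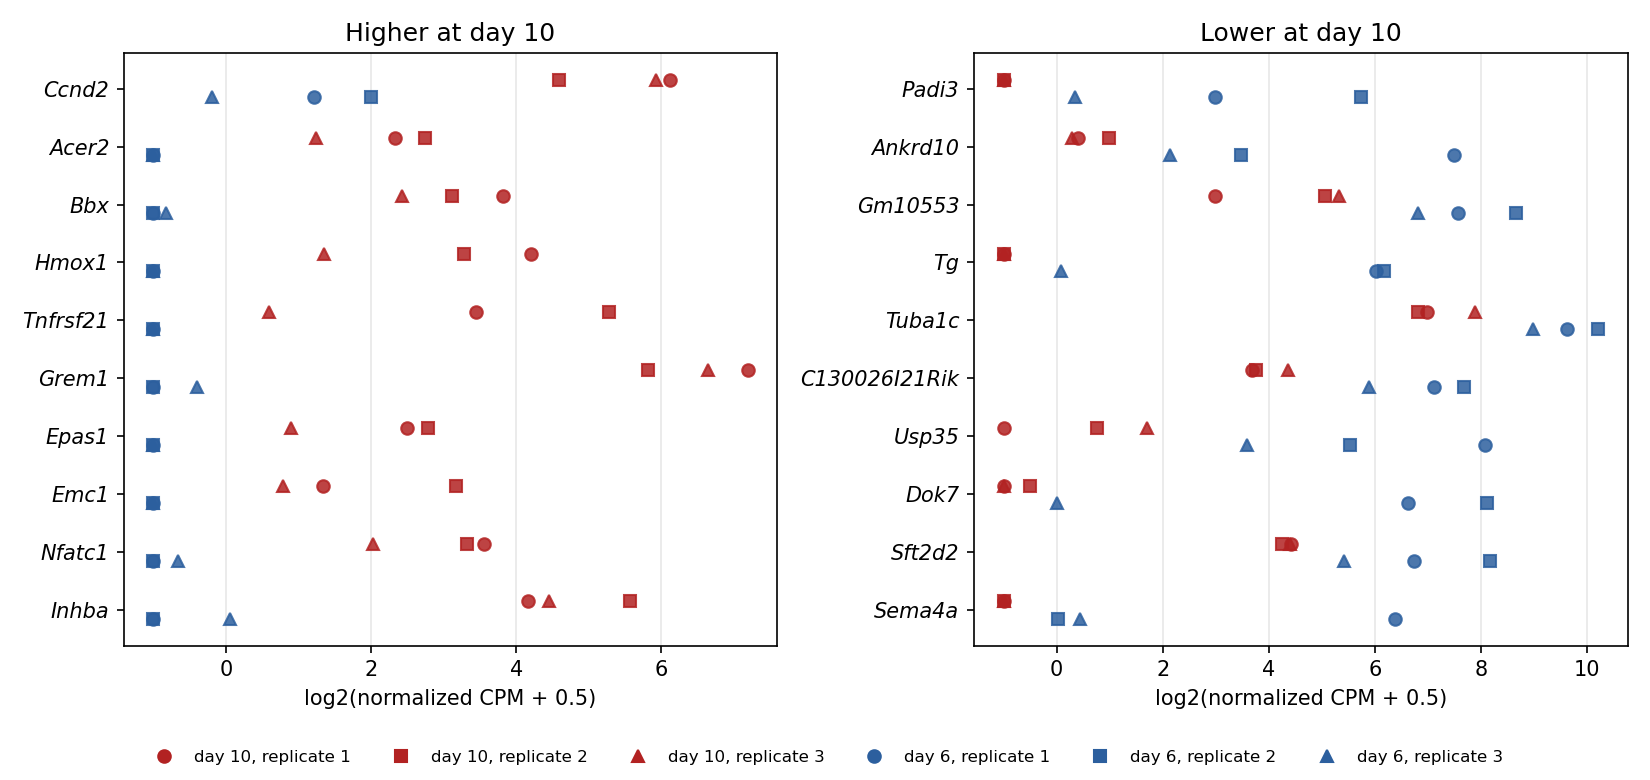
Points give log2(normalized CPM + 0.5) of the 10 higher and 10 lower named genes in each library, with Day 10 in red and Day 6 in blue and the marker shape giving the replicate. Day 6 replicate 3 (blue triangle) lies with the shallow libraries in the higher genes, and between them and Day 10 in most lower genes.

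The labelled cell type was checked against marker lists. All 16 oocyte markers were detected in every library and summed to 14441 to 19519 CPM at Day 10 and 15089 to 19852 CPM at Day 6. None was a DEG, and their median log2 fold change was 0.12, against 0.40 for all genes, with -0.23 in the pair. Gdf9, the oocyte growth factor, had 2325, 1844 and 3760 CPM at Day 10 and 4904, 3720 and 4567 CPM at Day 6, a log2 fold change of -0.73 with a standard error of 0.49. Bmp15, its partner, had 4963, 4278 and 670 CPM at Day 10 and 2392, 2291 and 657 CPM at Day 6, so that replicate 3 stood apart from the others on both days.

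Of 26 granulosa cell markers 23 passed the filter, 6 were higher and 1 lower at Day 10, beside 5.45% and 7.21% of all genes. The list's median log2 fold change was 1.96, or 0.85 with the 4 genes that had no count on 1 day set to their bound, and 0.61 in the pair. Inhba is given above, and the 5 others were Fshr, Inha, Inhbb, Fst and Hsd17b1. Fshr, the FSH receptor, had 10.5, 17.0 and 10.8 CPM at Day 10 and 0, 0 and 0.489 CPM at Day 6 (log2 fold change 5.93, standard error 1.60, pair 3.51). Inha, the inhibin alpha subunit, had 13.2, 52.5 and 46.7 CPM at Day 10 and 0, 4.35 and 2.98 CPM at Day 6 (log2 fold change 3.93, standard error 1.44, pair 3.76). In all 6 genes the 3 Day 10 libraries lay above the 3 Day 6 libraries.

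Inhbb, the beta B subunit, had 5.86, 9.03 and 5.96 CPM at Day 10 and 0, 0 and 0.636 CPM at Day 6. Fst (follistatin, which binds activin) had 0.618, 2.47 and 3.18 CPM at Day 10 and no count at Day 6. By the limit used above it was at least 50.6-fold higher, or 37.4-fold without Day 10 replicate 3. Hsd17b1, which makes estradiol from estrone, had 2.53, 5.72 and 6.08 CPM against 0, 0 and 0.831 CPM. All 6 kept their sign in the alternatives tried, and 5 of them lost the call in some. With Day 6 replicate 3 alone Inhba and Fshr were DEGs and the other 4 were not, and in the rRNA-rich libraries Fst and Inha were not. With the replicate number as a block Inhba and Fst were DEGs, while Fshr, Inha, Inhbb and Hsd17b1 were not. With only the 6 libraries in the fit Inha, Inhbb and Hsd17b1 were not. Hsd17b1 was also no DEG without Day 10 replicate 2 or 3, without Day 6 replicate 1 or 2, under DESeq2's size factors, with no filter on low counts and with library kind (rRNA-rich or not) as covariate.

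Other granulosa markers overlapped between the days or were barely detected, except that Star, a cholesterol transporter that was not a DEG, had 1.02 to 1.71 CPM at Day 10 and 0 to 0.228 CPM at Day 6. Of the genes that follow, Serpine2 and Cyp19a1 were chosen after their values were seen. The summed level of the list was 1270, 1291 and 612 CPM at Day 10 and 344, 1589 and 851 CPM at Day 6, so the sum overlapped. Serpine2, a protease inhibitor, gave 434 to 1032 CPM of it at Day 10 and 148 to 1240 CPM at Day 6. Cyp19a1, the aromatase, had 20.4, 23.6 and 10.7 CPM at Day 10 and 7.77, 0 and 22.5 CPM at Day 6. Amh, Ptx3 and Tnfaip6, which mark preantral or cumulus granulosa cells, did not pass the filter, and Amh and Tnfaip6 had no count in any of the 6 libraries. Of the 26 markers, 8, 4 and 5 had no count in the Day 10 libraries and 17, 17 and 9 in the Day 6 libraries. Wt1, the 1 lower gene, was at 48.7 CPM in Day 6 replicate 2 and at or below 0.474 CPM elsewhere. The part of granulosa cell RNA carried over into the oocyte pools was not tested, and more transcript in the oocyte and more attached cells cannot be told apart here.

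**Figure D4:**
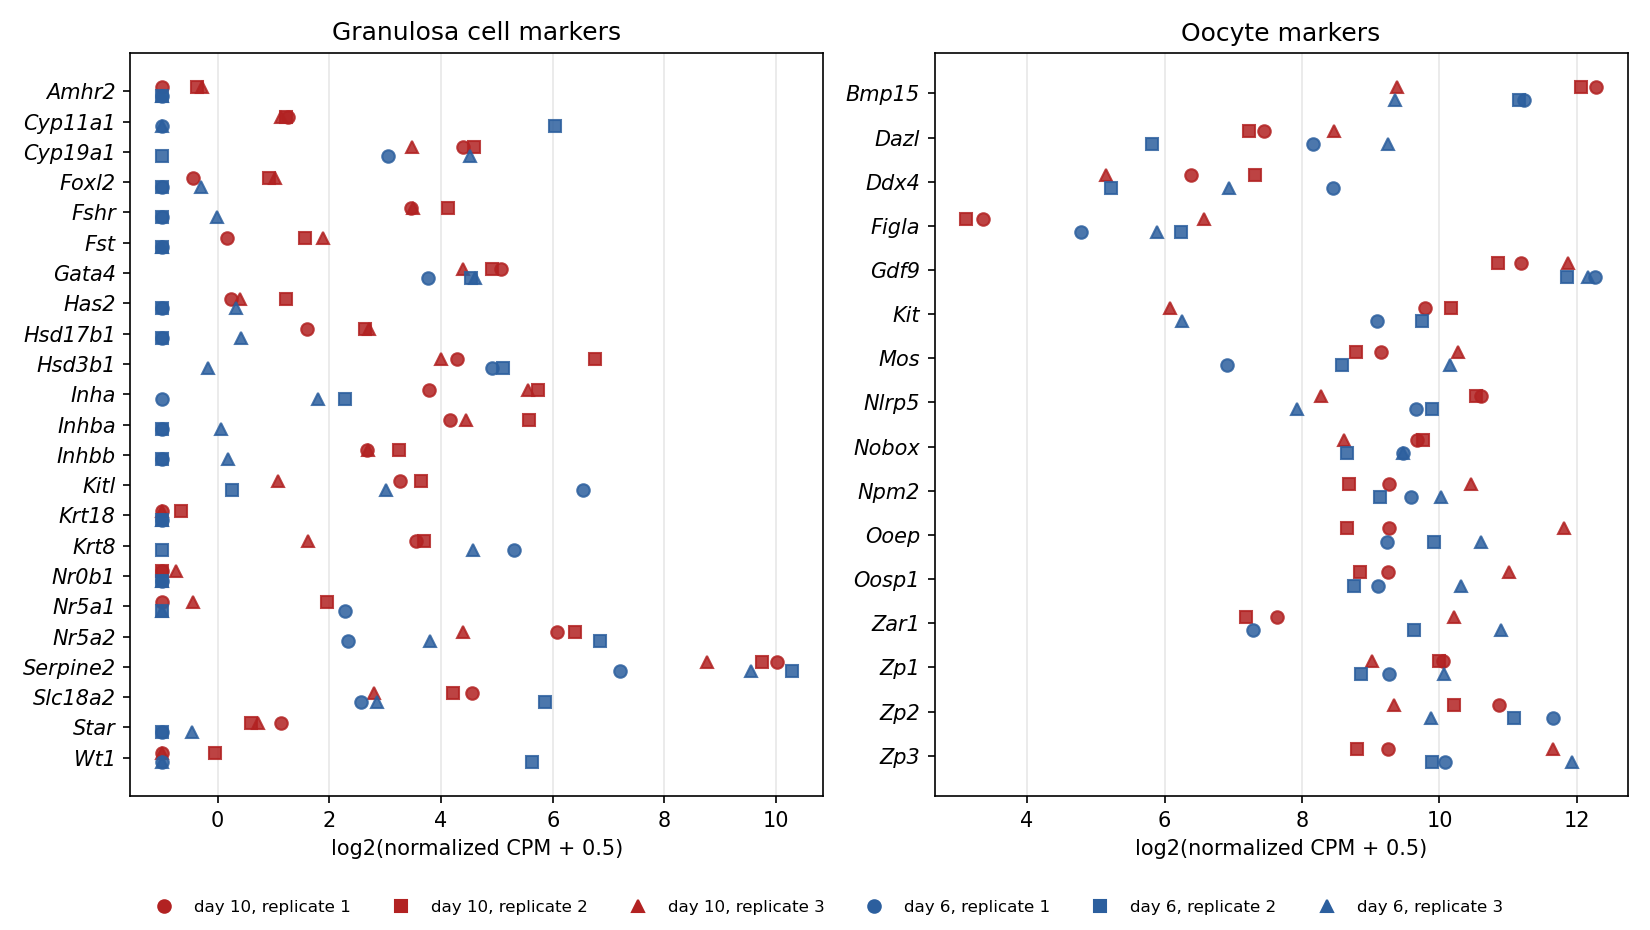
Points give log2(normalized CPM + 0.5) of the granulosa cell markers and oocyte markers that passed the filter, by library, with Day 10 in red and Day 6 in blue. Fshr, Fst, Hsd17b1, Inha, Inhba and Inhbb lie higher in all 3 Day 10 libraries, while the oocyte markers overlap.

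The stretches before the start sites of Fshr, Inhba and Grem1 are shown because these genes were at or near 0 at Day 6 and rose together, as RefSeq gives them for GRCm38.p6 (the build mm10), 250 bases up to the start in the direction of the gene. Capitals mark matches on either strand of 3 motifs. These are the E-box CACGTG, the cAMP response element TGACGTCA and AGGTCA, which is only a part of the NR5A site. Of the 32851 promoter windows in the reference, 6.02%, 1.55% and 14.0% hold them, in that order. A whole NR5A site was not searched for. All 3 symbols were found in the reference, and the first window listed for each is shown.
Fshr (chr17:89200676-89200925, minus strand): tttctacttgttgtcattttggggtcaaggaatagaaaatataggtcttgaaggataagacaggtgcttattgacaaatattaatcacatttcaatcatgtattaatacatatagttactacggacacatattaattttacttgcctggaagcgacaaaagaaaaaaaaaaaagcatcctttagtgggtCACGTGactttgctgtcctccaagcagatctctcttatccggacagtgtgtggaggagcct
Inhba (chr13:16011601-16011850, plus strand): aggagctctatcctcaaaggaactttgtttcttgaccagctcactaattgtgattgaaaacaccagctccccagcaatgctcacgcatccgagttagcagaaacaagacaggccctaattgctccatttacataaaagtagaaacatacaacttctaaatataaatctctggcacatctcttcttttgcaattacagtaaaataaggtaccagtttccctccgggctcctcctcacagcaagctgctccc
Grem1 (chr2:113758649-113758898, minus strand): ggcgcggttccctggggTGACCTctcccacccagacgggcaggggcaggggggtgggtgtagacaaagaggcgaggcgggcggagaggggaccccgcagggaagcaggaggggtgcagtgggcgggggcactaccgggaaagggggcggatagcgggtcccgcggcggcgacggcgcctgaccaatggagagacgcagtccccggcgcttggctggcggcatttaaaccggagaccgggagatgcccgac
The Fshr window holds 1 E-box, whose first base lies 61 bases before the start. The Grem1 window holds 1 match to AGGTCA, which does not make it a whole NR5A site. None of the 3 motifs was found in the Inhba window. A match is a run of letters and not evidence of binding in these oocytes.

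Markers of other cell types were few and mostly at the edge of detection. The 15 theca and stroma markers summed to 4.15 to 14.4 CPM at Day 10 and 9.91 to 42.1 CPM at Day 6, with 6 to 10 of them without a count at Day 10 and 9 to 14 at Day 6. The 14 immune cell markers summed to 5.36 to 37.5 CPM and 5.05 to 59.6 CPM, and the 12 blood and endothelial markers to 66.6 to 70.0 CPM and 23.7 to 91.4 CPM. Ptch1 was the 1 DEG among theca and stroma markers, higher at Day 10 with 0.795 to 4.13 CPM against 0 to 0.179 CPM. Each of the other DEGs in these lists except Pecam1 rested on 1 or 2 libraries. Hbb-bs, a hemoglobin chain, had 10.8 CPM in Day 10 replicate 3 and no count in the other 5 libraries, Csf1r had 49.2 CPM in Day 6 replicate 1, Tyrobp 5.05 CPM in Day 6 replicate 2, and Vwf 19.2 and 73.1 CPM in both shallow libraries. Pecam1, an endothelial adhesion molecule, had 47.0, 50.8 and 24.9 CPM at Day 10 and 4.52, 13.2 and 18.6 CPM at Day 6. In thinned counts Pecam1 was not a DEG, and Hbb-bs, Tyrobp and Wt1 did not pass the filter. The medians of these 3 lists moved by more than 1 between alternatives.

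Over the 30 gene lists 93 genes were DEGs, of which 72 were also DEGs in thinned counts. Of all genes tested 2661 were DEGs (12.7%), and 1490 of these were also DEGs in thinned counts (median over draws). With Day 6 replicate 3 alone, the list genes that kept their call were Hmox1, Ezh1, Myc, Atf3, Hspa5, Fabp5, Atp2a2, Fshr, Inhba, Ago4, Tuba1c and Cacna1c. Every other gene that a list names as a DEG lost its call there. Among all 2661 DEGs a similar share kept the call, so these genes are not set apart by it. The count in each list stands beside 5.45% of all genes higher and 7.21% lower.

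Genes that serve the oocyte's stores changed in small numbers. Of 12 genes of the zona pellucida and fertilization none was a DEG, and the median log2 fold change was 0.47 (0.0051 in the pair). Zp3 had 612, 446 and 3205 CPM at Day 10 and 1084, 951 and 3895 CPM at Day 6, and Zp2 had 1873, 1185 and 647 CPM and 3202, 2160 and 937 CPM. In both genes the values followed the replicate number as much as the day. Of 16 oocyte transcription factors tested only Tbpl2 was a DEG, lower at Day 10, and it rested on Day 6 replicate 2, at 195 CPM against 4.16 to 19.9 CPM in the other 5 libraries. Among 14 genes of oocyte growth factors, Kit and connexins, Bmpr1b (a BMP receptor) was higher at 186, 154 and 70.0 CPM against 29.996, 64.6 and 60.3 CPM, and it was not a DEG in thinned counts, at 1.21.

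In the subcortical maternal complex and maternal effect list, 3 of 22 genes were DEGs, all higher (13.6%, beside 5.45% of all genes). Zbed3, a subunit of that complex, had 14873, 15912 and 4877 CPM at Day 10 and 3015, 2290 and 5503 CPM at Day 6. The replicate 3 pair went the other way, at -0.17. Nlrp2 had 531, 482 and 123 CPM against 85.3, 129 and 103 CPM, and Nlrp9b 530, 688 and 199 CPM against 216, 170 and 193 CPM, with pair ratios of 0.26 and 0.04. Nlrp9b was not a DEG in thinned counts, at 1.06. The 3 higher genes were high in the rRNA-rich Day 10 libraries, and replicate 3 was alike on both days.

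Few cell cycle genes were DEGs. Of 37 genes of meiotic arrest and maturation promoting factor, Mastl (the Greatwall kinase) and Plk1 (polo-like kinase 1) were higher. Mastl had 329, 551 and 115 CPM at Day 10 and 50.2, 40.2 and 141 CPM at Day 6, with a pair ratio of -0.30, and Plk1 had 530, 513 and 197 CPM against 45.9, 214 and 145 CPM, with 0.44. Plk1 was not a DEG in thinned counts, at 1.42. Of 35 genes of spindle, kinetochore and cohesin, Tuba1c alone was a DEG, lower at Day 10 as given above. Of 36 genes of the actin cytoskeleton and polar body, 3 were higher, among them Rdx (radixin), with 2379, 2660 and 1446 CPM against 535, 866 and 1349 CPM and a pair ratio of 0.10, which was not a DEG in thinned counts, at 1.06.

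Genes of mRNA turnover had a median log2 fold change of 1.03, against 0.40 for all genes, and 0.18 in the pair, against 0.07. Of 30 tested, 3 were higher (10%, beside 5.45% of all genes) and 1 lower. Cnot4, an E3 ligase of the CCR4-NOT deadenylase, had 409, 442 and 271 CPM at Day 10 and 67.9, 40.0 and 149 CPM at Day 6 (log2 fold change 2.13, standard error 0.62, pair 0.87). Edc4, a scaffold of decapping, had 320, 463 and 149 CPM against 81.7, 54.6 and 114 CPM, and Xrn2, a nuclear exonuclease, 128, 124 and 125 CPM against 7.95, 6.61 and 66.1 CPM. In all 3 genes the groups did not overlap, and Day 6 replicate 3 was the highest of its group. Dcp1b, a decapping cofactor, was the lower gene, at 48.8 and 124 CPM in the shallow libraries and 0.701 to 5.42 CPM in the others. Of 32 genes of mRNA storage and translation, Papolg (a poly(A) polymerase) and Lsm14a (a P-body protein) were higher and Khdrbs1 was lower. Neither Papolg nor Lsm14a was a DEG in thinned counts, at 1.65 and 1.27. Khdrbs1 was at 431 CPM in Day 6 replicate 2 and at 3.25 to 19.9 CPM in the other 5 libraries. In the small RNA list of 22, Ago1 was higher, and Ago4, Pld6 and Piwil4 were lower with their highest value in a shallow library. In thinned counts Ago1 was not a DEG and Piwil4 did not pass the filter.

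DNA methylation and chromatin genes had 6 of 49 members higher and 1 lower (12.2% and 2.04%, beside 5.45% and 7.21% of all genes), with a median of 0.82 that became 0.26 under DESeq2's size factors and 0.04 in the pair. Uhrf1, which guides maintenance of DNA methylation, had 608, 745 and 247 CPM at Day 10 and 87.3, 25.4 and 161 CPM at Day 6 (log2 fold change 2.54, standard error 0.75, pair 0.61). Kdm6b, a demethylase of histone H3 lysine 27, had 518, 487 and 179 CPM against 52.8, 167 and 89.2 CPM, with a pair ratio of 0.997. The groups overlapped in neither of these genes. Tet3, which oxidizes 5-methylcytosine in the zygote, had 2251, 4498 and 686 CPM against 877, 435 and 430 CPM. It was not a DEG without Day 10 replicate 2 (1.34), without Day 6 replicate 2 (1.85) or without Day 6 replicate 3 (1.92). Arid1a, a subunit of the BAF remodelling complex, had 988 and 1360 CPM in Day 10 replicates 1 and 2 and 17.8 to 127 CPM in the other 4 libraries, so replicate 3 was on the Day 6 side.

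Ribosomal protein mRNAs and nuclear genes of oxidative phosphorylation (OXPHOS) gave almost no DEG over the 6 libraries, and their medians had opposite signs in the rRNA-rich and rRNA-poor libraries. None of 82 ribosomal protein genes was a DEG, and the median log2 fold change was 0.16. In the replicate 3 pair 79 of the 82 were above 0 and 51 above 1, with a median of 1.18, against 0.07 for all genes. In the rRNA-rich libraries the median was -1.65. Their summed level was 5045 and 3467 CPM in Day 10 replicates 1 and 2, 7442 and 14340 CPM in Day 6 replicates 1 and 2, and 27729 and 12603 CPM in replicate 3 of Day 10 and Day 6. Many ribosomal protein genes have processed pseudogenes that share their reads. Of 77 nuclear OXPHOS genes, 1 was a DEG (Ndufs1, lower), 62 were above 0 in the pair with a median of 1.05, and the median was -1.45 in the rRNA-rich libraries. The rRNA-poor comparison is 1 library against 1, and the part of library kind in these values was not tested.

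Of the mitochondrially encoded mRNAs, all 13 had a negative log2 fold change, 4 were DEGs (30.8%, beside 7.21% of all genes), and the median was -1.42. The complex I gene mt-Nd1 had 185, 179 and 121 CPM at Day 10 and 1520, 1999 and 153 CPM at Day 6 (log2 fold change -2.92, standard error 0.76). Day 6 replicate 3 lay in the Day 10 range. The other 3 DEGs, mt-Nd2, mt-Nd4 and mt-Atp8, were likewise highest in the shallow libraries. In the pair the median was 0.28 and 9 of 13 were above 0, and with Day 6 replicate 3 alone the median was 0.11. The share of mitochondrial mRNA in the counts was 0.244%, 0.229% and 0.362% at Day 10 and 0.888%, 1.01% and 0.352% at Day 6, with a two-sided exact permutation p of 0.2. Mitochondrial tRNA genes, 12 of 22 of them lower DEGs, had 0.0800% and 0.0904% of counts in the shallow libraries and 0.00146% to 0.00372% in the other 4. In the culture without NT-4, mt-Nd1 had 75.2, 130 and 120 CPM at Day 10 and 675, 486 and 519 CPM at Day 6, there with all 3 Day 6 libraries higher.

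The neurotrophin list covers ligands, receptors and adaptors. Ntrk2, the receptor of NT-4, had 0.648, 2.54 and 2.74 CPM at Day 10 and 35.4, 0 and 0.179 CPM at Day 6, and it was not a DEG (log2 fold change -2.58, standard error 1.93, pair 2.25). Of 24 genes tested, 3 were higher (Crk, Sos2 and Gab1) and 3 lower (Bdnf, Ntrk3 and Sh2b1), each 12.5% of the list, beside 5.45% and 7.21% of all genes. The adaptor Crk had 182, 157 and 50.2 CPM against 19.0, 6.44 and 51.3 CPM, and Sos2, a RAS exchange factor, had 14.6, 17.1 and 7.44 CPM against 1.08, 0 and 3.47 CPM. The lower genes were highest in a shallow library, Bdnf with 32.5 CPM in Day 6 replicate 1 and no count in the other 5 libraries, and Ntrk3 with 18.4 and 157 CPM in the shallow libraries against 2.54 to 6.40 CPM. Bdnf did not pass the filter in thinned counts. The list's median was 0.13, and 0 in the pair.

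Downstream, 3 of 38 genes of PI3K, AKT, mTOR and FOXO signaling were higher and 2 lower, 7.89% and 5.26%, near the 5.45% and 7.21% of all genes. Pdpk1, the kinase that activates AKT, had 186, 203 and 46.9 CPM against 31.8, 33.9 and 50.8 CPM, with replicate 3 alike on both days, and Pik3r2, a PI3K subunit, 9.01, 6.80 and 2.74 CPM against 0, 0 and 0.913 CPM. Sesn2 and Irs2 were lower, both with their highest value in a shallow library, and Irs2 did not pass the filter in thinned counts. Of 32 genes of the RAS and MAPK cascade, Nf1 and Map3k1 were higher. Nf1, a brake on RAS, had 82.3, 97.0 and 8.02 CPM against 0.723, 4.18 and 8.15 CPM.

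Immediate early genes, which growth factor signals induce first, had a median of 2.10 and 0.75 in the pair, at low levels. Of 19 tested, 4 were higher (Fos, Atf3, Jun and Klf4) and 2 lower (Fosb and Myc), 21.1% and 10.5%, beside 5.45% and 7.21% of all genes. Jun had 1.47, 3.18 and 1.05 CPM at Day 10 and 0, 0 and 0.130 CPM at Day 6. Fos had 0.501, 3.52 and 0.538 CPM and no count at Day 6, which put it at least 36.8-fold higher by the limit used above (12.6-fold without Day 10 replicate 2), and Atf3 at least 29.3-fold higher (18.8-fold without Day 10 replicate 3). Of these 2 lower genes, Fosb was at 428 CPM in Day 6 replicate 2 and at 0 to 4.89 CPM elsewhere, and Myc had a count only in Day 6 replicate 3, at 0.456 CPM, and did not pass the filter in thinned counts. The sum of the list overlapped, at 65.3 to 191 CPM at Day 10 and 36.6 to 432 CPM at Day 6.

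Of 34 calcium signaling genes, 2 were higher and 8 lower, beside 5.45% and 7.21% of all genes. Atp2a2, the calcium pump of the endoplasmic reticulum, had 551, 417 and 136 CPM at Day 10 and 101, 77.8 and 41.6 CPM at Day 6 (log2 fold change 2.32, standard error 0.67, pair 1.70). Its libraries of the rRNA-rich and the rRNA-poor kind both differed by day in the same direction. The lower genes were highest in Day 6 replicate 1 or 2, such as Camk2d at 60.2 and 199 CPM against 0.585 to 1.65 CPM in the other 4 libraries, and Cacna1d at 175 and 189 CPM against 1.14 to 6.77 CPM. Among the DEGs of this list, Cacna1c, Cacna1s and Orai2 did not pass the filter in thinned counts.

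Single genes are given from the lists of metabolism and stress, whose counts stand beside 5.45% of all genes higher and 7.21% lower. Fabp5, a fatty acid binding protein, had 96.4, 53.7 and 356 CPM at Day 10 and 50.2, 25.6 and 10.8 CPM at Day 6 (log2 fold change 2.55, standard error 1.01, pair 4.98). Among 35 genes of cholesterol and fatty acid handling 4 were higher and 1 lower. Cd36, a fatty acid receptor, was among the higher genes, with 110, 147 and 25.9 CPM against 6.32, 3.13 and 29.8 CPM and a pair ratio of -0.20. The 36 symbols of pyruvate and glucose use had 37 identifiers tested, of which 4 were higher and 2 lower. Of the higher ones, Pdha1, the pyruvate dehydrogenase subunit, had 88.4, 118 and 35.9 CPM against 6.69, 13.4 and 34.2 CPM and a pair ratio of 0.07. Hk2 (hexokinase 2) and Cs (citrate synthase) were also higher, and Pfkl was lower and high only in the shallow libraries. Among 33 antioxidant genes, Hmox1 and Gstm1 were higher and Srxn1 and Nfe2l2 lower (Srxn1 did not pass the filter in thinned counts), and among 29 genes of the BCL2 and p53 families none was a DEG.

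Hspa5, the main chaperone of the endoplasmic reticulum, was lower at 31.1, 32.7 and 28.0 CPM against 66.9, 250 and 82.4 CPM (log2 fold change -2.12, standard error 0.71, pair -1.54). It and Herpud1, higher at 0.206 to 0.541 CPM against no count, were the DEGs among 32 genes of heat shock and ER stress, and Herpud1 did not pass the filter in thinned counts.

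**Figure D5:**
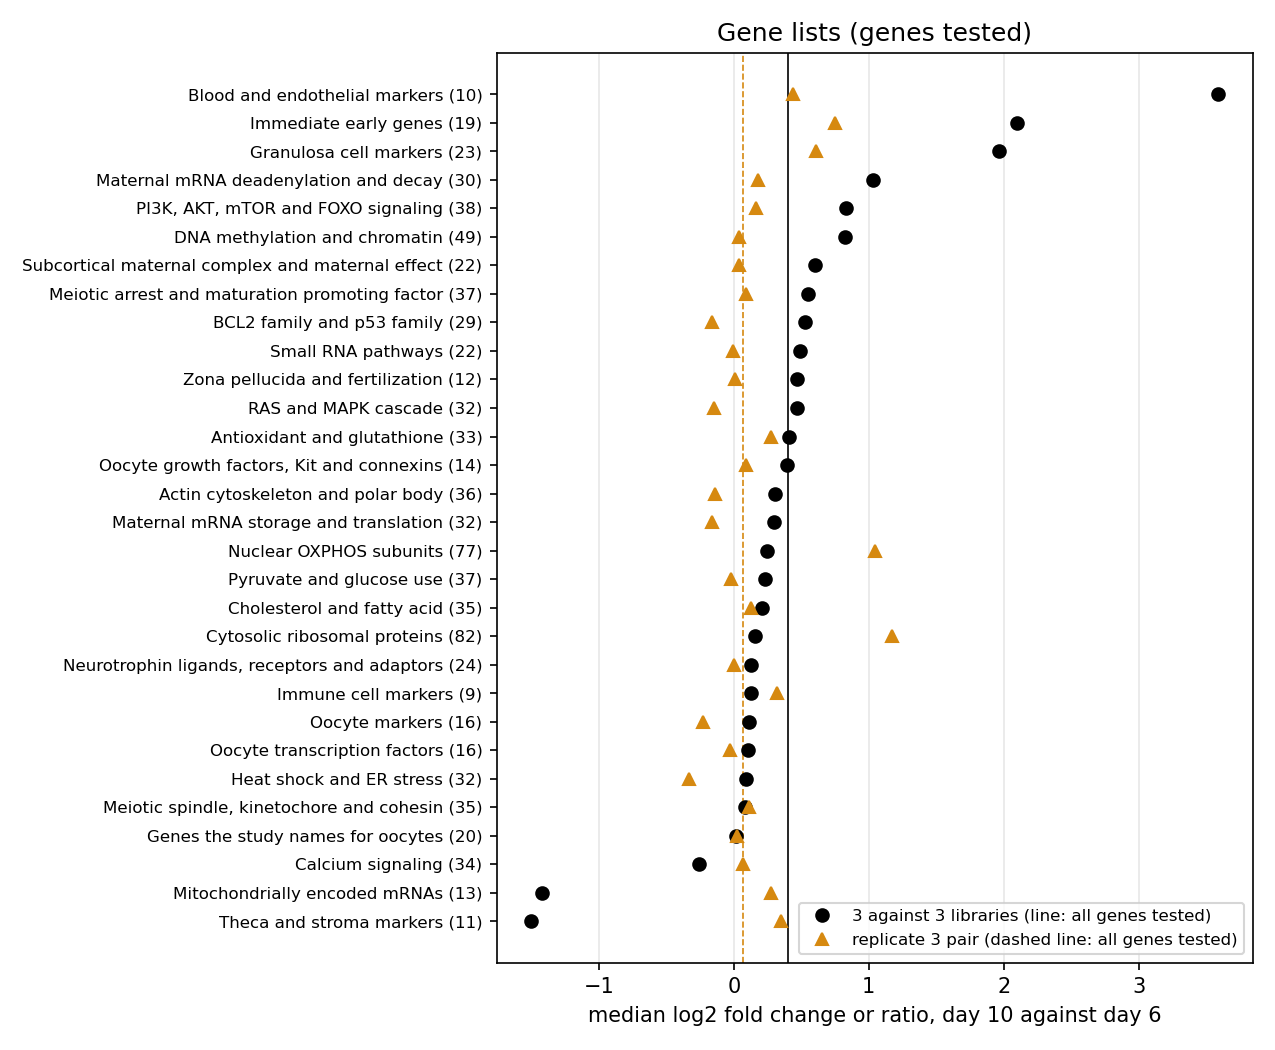
Each row is a gene list with the number of genes tested, black circles give the median log2 fold change over the 6 libraries and orange triangles the median log2 ratio of the replicate 3 pair, and the lines give the same over all genes tested (0.40 and 0.07). Ribosomal protein and nuclear OXPHOS genes are highest in the pair (1.18 and 1.05), and mitochondrial mRNAs move from -1.42 to 0.28.

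Of the 20 tested genes that the study names for oocytes, Jun was higher and Cacna1s lower. The study took some of the 20, such as Nobox and Zp3, from earlier work as a control, and others from results on these samples. Cacna1s, a calcium channel subunit, had 74.3 and 0.870 CPM in the shallow libraries and at most 0.0677 CPM elsewhere, and it did not pass the filter in thinned counts. Arf6, a small GTPase of membrane and actin traffic, had 98.0, 34.8 and 46.8 CPM at Day 10 and 135, 276 and 126 CPM at Day 6, with a log2 fold change of -1.58 and a standard error of 0.76, and was not a DEG although its groups did not overlap. Trp53 had 55.7, 41.7 and 34.6 CPM against 0, 0 and 24.5 CPM and was not a DEG, and Rac1 had 212, 91.0 and 374 CPM against 76.1, 9.92 and 454 CPM. Stat3, Egr1, Nobox, Zp1 and Lhx8 overlapped between days.

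Whether the day difference with NT-4 differed from that in culture without NT-4 was tested as an interaction, with 3 libraries of each day in that culture. By the same threshold 1339 genes differed (440 with a higher log2 change with NT-4, 2.09% of the genes tested, and 899 with a lower one, 4.28%). No gene had an adjusted p under 0.05 in edgeR's quasi-likelihood test (smallest 0.664), and DESeq2's Wald test gave 173. At an unadjusted P under 0.05 the same 1339 genes passed. Without IVG-NT Day 6 replicate 3 the count was 4817, and with replicate 3 alone for Day 6 in both cultures, an alternative chosen after seeing the data, it was 336. The 3 genes with the smallest P in each direction were as follows. Acer2, Gm40663 and Emc1 had no count in the 3 IVG-NT Day 6 libraries and stood at 1.80 to 4.50, 1.22 to 10.0 and 3.13 to 11.5 CPM in the Day 6 libraries without NT-4. Padi3, Tdg-ps (a pseudogene whose reads can come from its parent gene) and Pcdhb8 were highest in the 2 shallow IVG-NT Day 6 libraries, with 7.41 and 52.9 CPM, 507 and 419 CPM, and 233 and 304 CPM. The Day 6 libraries without NT-4 held 28674696, 23684453 and 55593251 counts, against 5954262, 7125348 and 50336973 with NT-4. Of the genes tested, 21.7%, 31.7% and 9.49% had no count in them, against 46.6%, 54.1% and 13.7% with NT-4.

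Of the 10 named higher genes 7 passed this threshold (Acer2, Bbx, Hmox1, Tnfrsf21, Epas1, Emc1 and Nfatc1), and of the 10 lower genes 6 did (Padi3, Ankrd10, Tg, Usp35, Dok7 and Sema4a). Among all genes tested 2.09% passed it with a higher and 4.28% with a lower log2 change with NT-4. Both sets were chosen for their day difference in the same IVG-NT libraries. That choice favours passing, so these counts are no evidence of a difference between the cultures. Without NT-4, Hmox1 had 10.9, 15.8 and 3.54 CPM at Day 10 and 3.67, 0.257 and 0.412 CPM at Day 6, and the day effects differed by 8.66 with a standard error of 2.69. Tnfrsf21 had 10.2, 8.71 and 1.27 CPM against 6.91, 0.257 and 2.59 CPM there (difference 11.19, standard error 3.01), and Epas1 2.05, 18.3 and 3.29 CPM against 1.30, 3.29 and 0.235 CPM (7.98, standard error 2.60). Bbx had 6.60, 11.3 and 1.64 CPM against 3.78, 3.24 and 6.52 CPM (7.22, standard error 1.96), and Nfatc1 4.94, 7.30 and 2.17 CPM against 3.24, 5.71 and 1.15 CPM (6.33, standard error 1.99). In all 5 genes the days overlapped in the culture without NT-4, and no IVG-NT Day 6 library was above 0.130 CPM. The part in these values of the lower depth of IVG-NT Day 6 replicates 1 and 2 was not tested.

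The other 3 named higher genes and Fshr did not pass this threshold. Inhba, Ccnd2, Fshr and Grem1 also had all 3 Day 10 libraries above all 3 Day 6 libraries in the culture without NT-4. The granulosa marker Inha, which did not pass this threshold either, overlapped between the days there. It had 3.51, 83.4 and 94.0 CPM at Day 10 and 11.9, 33.1 and 1.47 CPM at Day 6, a difference of day effects of 1.96 with a standard error of 1.83. Inhba had 6.79, 71.3 and 64.3 CPM at Day 10 and 0.720, 0 and 0.5002 CPM at Day 6 in that culture, and the day effects differed by 0.07 with a standard error of 1.74. Ccnd2 had 34.8, 97.4 and 86.1 CPM against 5.22, 4.58 and 7.69 CPM, a difference of day effects of 1.15 with a standard error of 1.16. Fshr had 9.38, 16.1 and 8.20 CPM against 0.972, 1.34 and 6.43 CPM, a difference of 3.99 with a standard error of 1.90 (edgeR's quasi-likelihood test, adjusted p = 0.786). Grem1 had 70.4, 206 and 77.6 CPM against 0, 0 and 9.62 CPM, a difference of 4.27 with a standard error of 2.32. With standard errors above 1 on the log2 scale, a difference of 1 between the cultures was not detectable for these genes.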

How the data were processed

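The authors deposited read counts per gene for each of 15 oocyte libraries, as whole numbers that were not normalized. Reads were aligned to mm10 with HISAT2, and the submitters' processing notes also name FastQC and edgeR. How counts per gene were taken, and the annotation release, are not given in the sources used here. Symbols come from the gene names paired with the identifiers. A table of the whole series was not used, and its 15 columns of per-sample values entered no step.

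Genes were filtered with filterByExpr at a minimum count of 10, scaled by TMM and fitted together over the 15 libraries of 5 groups with edgeR 4.0.16 (R 4.3.3, limma 3.58.1), by the quasi-likelihood test with Benjamini-Hochberg adjustment. DESeq2 1.42.0 was an alternative. The DEG threshold was a log2 fold change beyond 1 at an unadjusted P under 0.05. The 9 other libraries, from follicles grown in vivo or without NT-4, entered the shared spread and the interaction only. Counts were thinned to 5954262 per library in 5 random draws, with medians over draws given. The ratio of the replicate 3 pair had 0.5 CPM added to both values. A fold against a group without counts is a bound, from 3 counts over the 3 libraries together, and covers counting error only. Libraries with over 5% rRNA were called rRNA-rich. The scripts were tested on simulated data.

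The named genes are the 10 protein-coding DEGs in each direction with the smallest P among those with separate libraries and a pair ratio beyond 1 in the same direction, up to 4 DEGs of each list by P (or the 2 most abundant members where a list has none), the genes the study names, and 3 genes in each direction for the interaction. A few genes that the rule names are not reported here. Genes named beyond this rule were chosen after their values were seen. The members and lists were chosen with earlier results of these data known. The study states repeated experiments behind the samples of a group, but the sources used here do not give the animals behind each sample, so the p-values measure the spread between these samples. Genes with near-identical copies, and overlapping genes, may share reads.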

Additional observations from a re-analysis of the deposited data

How the results depend on the processing

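No DEG count of the day comparison stayed within 1.5 times 2661 under all settings. It was 706 (314 higher, 392 lower) with only the 6 libraries in the fit, 4250 (3470 lower, 941 with an adjusted p under 0.05 in edgeR's quasi-likelihood test) with no filter on low counts, and 735 (438 higher, 297 lower) with Day 6 replicate 3 alone. DESeq2's size factors gave 713 higher, DESeq2's Wald test 715 with an adjusted p under 0.05, and thinning 986 lower. After seeing the data, 3 more settings were added. The rRNA-rich libraries gave 4918 (3536 higher, 360 with an adjusted p under 0.05 in edgeR's quasi-likelihood test), and the kind of library as a covariate 1768 higher. For the interaction, the third added setting, Day 6 replicate 3 alone in both cultures, gave 336 (189 higher, 147 lower), thinning 738 (443 lower), the kind of library 834 higher, no filter 1424 lower and 165 with an adjusted p under 0.05 in edgeR's quasi-likelihood test, and DESeq2's Wald test 173. Leaving out 1 library gave 1507 to 6622 DEGs (623 to 4622 higher, 782 to 2000 lower, 0 to 2715 adjusted) and 1001 to 4817 for the interaction (298 to 3644 higher, 667 to 1173 lower, 0 to 1456 adjusted). The cause was not tested.

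The replicate numbers were not taken as pairs, as the sources do not say which samples share an experiment. The deviations of same-numbered Day 10 and Day 6 libraries correlated at 0.0803, 0.0663 and 0.26. Replicate 2 of Day 10 correlated more with replicate 1 of Day 6 (0.128), and replicate 1 of Day 10 with replicate 2 of Day 6 at 0.0509. The value of 0.26 belongs to the rRNA-poor library of each day. With the rRNA-rich libraries of the other day, the rRNA-poor Day 10 library correlated at -0.15 and -0.084. The rRNA-poor Day 6 library did so at -0.146 and -0.216. Whether this match comes from library kind or a shared experiment was not tested. The replicate block gave 502 DEGs (391 higher, 111 lower, 12 with an adjusted p under 0.05 in edgeR's quasi-likelihood test), and for the interaction 770 (425 lower). Under the block Nfatc1, Ankrd10, Sft2d2, Hsd17b1, Fshr, Inha and Inhbb were not DEGs.

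Gene directions turned as follows. Under DESeq2's size factors the log2 fold change was -0.55 for Stat3, -0.21 for Zp1, -0.33 for Nobox, -0.11 for Bcl2l10, -0.0434 for Foxo3. In DESeq2's Wald test the log2 fold change was -0.55 for Stat3, -0.22 for Zp1, -0.33 for Nobox, -0.11 for Bcl2l10, -0.0434 for Foxo3. With only the 6 libraries in the fit the log2 fold change was -0.00974 for Stat3. With the rRNA gene left out the log2 fold change was 0.0131 for Sohlh2. In the rRNA-rich libraries only the log2 fold change was -0.0367 for Stat3, 4.07 for Orai1, -0.40 for Zp4-ps. With the kind of library as covariate the log2 fold change was -0.0278 for Stat3, 0.0196 for Sohlh2, 1.09 for Orai1. With the replicate block the log2 fold change was 0.17 for Fosb, 1.20 for Sohlh2, 0.28 for Suv39h1, 3.37 for Orai1, 2.99 for Ntrk2. With thinned counts the log2 fold change was -0.23 for Stat3, -0.029 for Nobox. With Day 6 replicate 3 alone the log2 fold change was -1.08 for Rac1, 0.78 for Vwf, 1.28 for Fosb, 0.83 for Prkaca, 0.0937 for Nfe2l2, 1.92 for Cacna1d, 0.87 for Pfkl, -0.41 for Zp1, 1.74 for Rela, 2.96 for Cacna1s, 0.83 for Sohlh2, 0.87 for Nfkb1, 0.30 for Khdrbs1, 1.25 for Sesn2, -0.13 for Nobox, 0.30 for Zp2, -0.66 for Bcl2l10, 2.15 for Dcp1b, 0.52 for Pld6, 0.83 for Pcdhb8, 4.28 for Tdg-ps, 0.50 for Mdm4, 3.36 for Ntrk2, 0.86 for Ntrk3, 0.18 for mt-Nd2, 0.27 for mt-Nd4, -0.0529 for Lhx8, -0.62 for Zp4-ps. In the replicate 3 pair the log2 fold change was -0.28 for Rac1, -0.20 for Cd36, 0.25 for Fosb, -0.39 for Stat3, 0.75 for Prkaca, -0.23 for Cs, -0.90 for Arid1a, 1.15 for Cacna1d, -0.0327 for Crk, -0.15 for Papolg, -0.0221 for Nf1, -0.11 for Pdpk1, 0.32 for Csf1r, -1.06 for Zp1, -0.30 for Mastl, 0.63 for Sohlh2, 0.23 for Nfkb1, 0.72 for Sesn2, -0.86 for Nobox, 0.0418 for Suv39h1, 1.38 for Dcp1b, -0.17 for Zbed3, 0.41 for Tdg-ps, 2.25 for Ntrk2, 0.19 for Rpl5, 0.42 for Ntrk3, 0.57 for mt-Nd2, -0.92 for Lhx8. Leaving out 1 library gave log2 fold changes of -0.30 to 2.39 for Rac1, -5.93 to 2.19 for Fosb, -0.54 to 1.34 for Stat3, -1.90 to 0.48 for Zp3, -6.73 to 0.46 for Csf1r, -0.0491 to 0.68 for Zp1, -0.75 to 1.02 for Rela, -4.15 to 0.0622 for Ndufs1, -0.59 to 1.79 for Sohlh2, -1.04 to 0.66 for Nfkb1, -3.82 to 0.95 for Khdrbs1, -0.11 to 0.47 for Nobox, -0.36 to 0.88 for Bcl2l10, -2.10 to 0.28 for Suv39h1, -1.13 to 5.19 for Orai1, -0.74 to 0.0528 for Mdm4, -3.20 to 4.06 for Ntrk2, -1.30 to 1.57 for Zp4-ps.

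List medians moved by more than the spread between replicates in these cases. Under DESeq2's size factors the median was -0.069 for small RNA pathways, 0.26 for DNA methylation and chromatin, 1.75 for immediate early genes, -0.20 for actin cytoskeleton and polar body, -0.32 for oocyte markers, -1.98 for theca and stroma markers. In DESeq2's Wald test the median was -0.0668 for small RNA pathways, 0.26 for DNA methylation and chromatin, 1.64 for immediate early genes, -0.20 for actin cytoskeleton and polar body, -0.32 for oocyte markers, 0.51 for granulosa cell markers, -1.98 for theca and stroma markers. With only the 6 libraries in the fit the median was 1.52 for blood and endothelial markers. With the rRNA gene left out the median was -0.61 for immune cell markers. In the rRNA-rich libraries only the median was -1.65 for cytosolic ribosomal proteins, 5.69 for immediate early genes, 0.59 for actin cytoskeleton and polar body, 0.76 for cholesterol and fatty acid, -0.41 for oocyte markers, 0 for theca and stroma markers, 1.07 for blood and endothelial markers. With the kind of library as covariate the median was -0.13 for theca and stroma markers. With the replicate block the median was 1.10 for small RNA pathways, 2.67 for immediate early genes, 0.67 for actin cytoskeleton and polar body, 1.14 for cholesterol and fatty acid, 3.75 for granulosa cell markers, 0.28 for theca and stroma markers, 1.15 for immune cell markers, 1.95 for blood and endothelial markers. With thinned counts the median was 2.52 for immediate early genes, -1.88 for theca and stroma markers, -0.68 for immune cell markers, 1.38 for blood and endothelial markers. With Day 6 replicate 3 alone the median was 1.70 for immediate early genes, 0.83 for cholesterol and fatty acid, -0.42 for oocyte markers, 3.35 for granulosa cell markers, 1.75 for theca and stroma markers, 2.25 for blood and endothelial markers. In the replicate 3 pair the median was 0.0406 for subcortical maternal complex and maternal effect, 0.18 for maternal mRNA deadenylation and decay, -0.00341 for small RNA pathways, 0.0418 for DNA methylation and chromatin, 0.28 for mitochondrially encoded mRNAs, -0.15 for RAS and MAPK cascade, 0.75 for immediate early genes, -0.14 for actin cytoskeleton and polar body, 0.61 for granulosa cell markers, 0.35 for theca and stroma markers, 0.44 for blood and endothelial markers. Leaving out 1 library gave medians of 0.83 to 1.70 for Maternal mRNA deadenylation and decay, -1.78 to 0.54 for Cytosolic ribosomal proteins, -2.18 to 1.06 for Nuclear OXPHOS subunits, 1.63 to 6.89 for Immediate early genes, 0.10 to 0.74 for Actin cytoskeleton and polar body, -0.48 to 0.33 for Oocyte markers, 0.62 to 3.31 for Granulosa cell markers, -1.87 to 1.45 for Theca and stroma markers, -1.11 to 4.64 for Immune cell markers, 0.63 to 6.98 for Blood and endothelial markers.

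Two-sided exact permutation tests of 3 against 3 libraries cannot go below 0.1. The depth of Day 6 replicates 1 and 2 limits every gene at low level: 9794 and 11356 of the genes tested had no count there, against 2143 to 4188 in the Day 10 libraries.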
